A study of Homo sapiens with 15 samples.

Results

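Solute carrier mRNAs, the messages of protein-coding genes whose symbol is SLC followed by a digit, were followed across input cytosolic extract and 4 kinds of pelleted condensates. Of 374 such genes among the 57500 counted, 245 reached 10 counts in 2 or more replicates under each of the 5 conditions, and these members were part of 16612 genes tested. They comprised 43 of 48 genes of the mitochondrial carrier family SLC25 and 202 of 326 other SLC genes, which are mostly translated at the endoplasmic reticulum (ER). Of the 129 genes removed, 35 passed the count minimum in at least 1 condition and 9 had no count in any library. Symbols do not always follow function. SLC9A3R1 and SLC9A3R2 (scaffold proteins), SLC7A6OS, SLC22A18AS, SLC4A1AP and SLC2A4RG encode no carrier and were kept by the rule, SLC26A10 is now named as a pseudogene, and SLC25A17 encodes a peroxisomal carrier.

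The extracts came from U2OS cells, a human osteosarcoma line whose genotype the labels give as wild type, and all 4 condensate groups were made by incubating extract in translation reactions for 2 h. The paper names the sequenced pellets as condensates of YFP-G3BP1, a tagged stress granule protein. Whether these extracts held the tagged protein is not clear from the sources used here. The mock group received no addition, the dsRNA group 250 nM double-stranded RNA, the silvestrol group 2 µg/ml silvestrol (an inhibitor of the initiation factor eIF4A) and the PEG group 1% polyethylene glycol, a crowding agent. Condensates were collected by centrifugation and washed, whereas input was extract that was never pelleted, so pelleting and incubation cannot be told apart from the mock condition in the comparison with input. Each group had 3 biological replicates of poly(A)-selected RNA. Total counts ranged from 15341973 to 46939993, with 15341973 to 25675182 in the PEG group and 23101982 in input replicate 1. The mesenchymal markers VIM, FN1, RUNX2 and SPARC were present in every library, COL1A2 stayed at or below 10 counts, and the summed level of 4 blood markers was at most 0.511 CPM (counts scaled to library size). Of 4 epithelial markers, EPCAM lay between 5.16 and 14.3 CPM and the sum between 7.27 and 15.1.

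Solute carriers move amino acids, sugars, ions, metals and cofactors across membranes. Most are inserted into the ER membrane while they are being translated, so their mRNAs sit on ER-bound ribosomes in cells, whereas SLC25 carriers are made on free or mitochondria-associated ribosomes and imported afterwards into the inner mitochondrial membrane. Their membrane-spanning helices are rich in leucine, isoleucine, valine, phenylalanine and methionine, whose codons all carry T (U in the mRNA) at the second position.

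The members differed from protein-coding genes as a whole in the median of that base composition, with overlapping ranges. The median share of codons with T at the second position was 36% over the 202 other SLC mRNAs and 31% over the 43 SLC25 mRNAs, against 26.2% over all 13533 protein-coding genes tested. The shares ran from 18.1 to 43.2%, from 23.6 to 37.3% and from 4.26 to 73.1%, in that order. Other membrane protein mRNAs were not compared. The stretches of 30 coding bases with the most such codons are shown for 5 members on which later results turn, from GENCODE 29 transcripts on GRCh38, 5′ to 3′ in the sense of the mRNA, with each second-position T in capitals.
SLC2A1: gTctTcaTcaTctTcactgTgcTccTggTt
SLC38A10: aTcgTccTgggggcgcTgcTctTggTctTc
SLC39A13: aTcgTggTaaTggTgcTgtTctcgcTctTc
SLC25A13: gcttTgtTtaTggTagcctTtcagcTgtTt
SLC25A29: cTcaTggggcTcacctTcaTcaacgcgcTg
These windows hold 9, 8, 9, 7 and 6 such codons of 10, in that order. They lie in coding exons at chr1:42927194-42927223 (minus strand, exon 10 of SLC2A1), chr17:81289773-81289802 (minus strand, exon 2 of SLC38A10), chr11:47415325-47415354 (plus strand, exon 10 of SLC39A13), chr7:96234833-96234862 (minus strand, exon 4 of SLC25A13) and chr14:100292970-100292999 (minus strand, exon 4 of SLC25A29). Median exon length was 3.99 kb for SLC25 and 5.50 kb for the other SLC mRNAs, against 5.08 kb for protein-coding genes, and median coding length was 963, 1608 and 1443 bases.

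Members took 0.711 to 0.972% of the counts of a library. Summed over the 43 SLC25 mRNAs, the level was 2894, 3225 and 3233 CPM in the 3 input libraries, 2617, 2664 and 2556 in mock and 3865, 4508 and 4003 in PEG. Over the 202 other SLC mRNAs the sums were 4888, 5567 and 5589.6 CPM in input, 6001, 6251 and 6487 in mock and 4921, 5189.6 and 5039 in PEG. The 3 input libraries thus lay above all mock and below all PEG libraries for SLC25, and below all mock libraries for the other SLC genes. These sums are weighted towards the most abundant mRNAs and do not describe the lists member by member. With PEG against input, 13 of the 43 SLC25 mRNAs were called higher and 14 lower at an edgeR adjusted p under 0.05. These were 30.2 and 32.6%, beside 25.5 and 25.9% of all genes. Per kb of exon, the highest input levels belonged to SLC25A5, at 423 CPM per kb, to SLC25A6, at 201, and to SLC25A1, at 119. SLC25A5 and SLC25A6 encode ADP/ATP carriers and SLC25A1 the citrate carrier. With PEG, SLC25A5 averaged 633, SLC25A6 387 and SLC25A1 146 CPM per kb. SLC25A5 stood above SLC25A6 in each input library, at 332, 473 and 465 against 142, 225 and 236 CPM per kb. The median member reached 6.29 CPM per kb in SLC25 and 2.48 among the other SLC genes.

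Because 2 of the most abundant members have close paralogs, the bases that set them apart were looked up. The 3 ADP/ATP carrier genes SLC25A4, SLC25A5 and SLC25A6 have coding sequences of 897 bases each. SLC25A5 and SLC25A6 share 78.8% of these bases and a longest identical run of 29 bases. Their first 30 coding bases are given with capitals where the 3 genes are not all the same; SLC25A4 was added to the named genes for this comparison after its values were seen, at 21, 24.3 and 23.8 CPM in input.
SLC25A4: atgGGTgaTCACgcTTGGAGcttcCTAaaG
SLC25A5: atgACAgaTGCCgcTGTGTCcttcGCCaaG
SLC25A6: atgACGgaACAGgcCATCTCcttcGCCaaA
They lie in exon 1 at chr4:185143373-185143402 (plus strand), chrX:119468516-119468545 (plus strand) and chrX:1391980-1392009 (minus strand). How the counting treated reads that fit several places is not given in the sources used here, so the levels of these 3 genes are less certain than those of other members.

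In mock condensates, SLC25 mRNAs lay lower than in input on balance and the other SLC mRNAs higher. The median log2 fold change was -0.17 over the 43 SLC25 mRNAs and 0.18 over the 202 others, against 0.00 over all genes tested. Of SLC25, 5 mRNAs were called higher (11.6%) and 8 lower (18.6%) at an edgeR adjusted p under 0.05. Of the other SLC genes, 37 were called higher (18.3%) and 11 lower (5.45%). Over all genes tested, the test called 17.6% higher and 15.8% lower, so the share of SLC25 mRNAs called lower and the share of other SLC mRNAs called higher were near the background, and fewer of the other SLC mRNAs were called lower than of all genes. Values are scaled within each library, so they are relative to all genes and do not give the amount of condensate that was pelleted. The reading of the called shares changed with the replicate number as a block. The counts higher and lower were then 9 and 19 for SLC25 (20.9 and 44.2%) and 87 and 26 for the other SLC genes (43.1 and 12.9%). Beside these stood 32.5 and 30.1% of all genes. With the block, more of SLC25 were thus called lower, and more of the other SLC genes higher, than of all genes. Single libraries moved these values. Without input replicate 1 the other SLC median was 0.079. Leaving out mock replicate 2 or 3 left 21 or 16 other SLC mRNAs called higher. Removing, in turn, mock replicates 2 and 3 and input replicates 2 and 3 left 5, 4, 4 and 6 other SLC mRNAs called lower, and 3, 3, 4 and 5 of SLC25.

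Per library, the medians of the lists parted from those of all genes in the same way (all log2 ratios to the input mean, scaled over the 15 libraries together). For SLC25 they were -0.15, -0.21 and -0.27 in the mock libraries, -0.19, -0.27 and -0.20 in dsRNA and -0.21, -0.20 and -0.18 in silvestrol. For the other SLC genes they were 0.047, 0.19 and 0.21 in mock, 0.074, 0.22 and 0.22 in dsRNA and 0.050, 0.23 and 0.21 in silvestrol, and the input libraries themselves stood at -0.18, 0.099 and 0.073. The replicate 1 libraries of these 4 groups were lower than replicates 2 and 3 for the other SLC genes, and mock replicate 1 fell between input replicates 1 and 3. Against the input library of the same number, the other SLC median was 0.22, 0.08 and 0.13 in mock replicates 1 to 3 and that of SLC25 was -0.12, -0.15 and -0.28. In PEG replicates 1 to 3 the other SLC median against the same-numbered input was 0.05, -0.29 and -0.31 and that of SLC25 was -0.055, 0.16 and 0.065, so replicate 1 had the opposite sign in both.

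**Figure D1:**
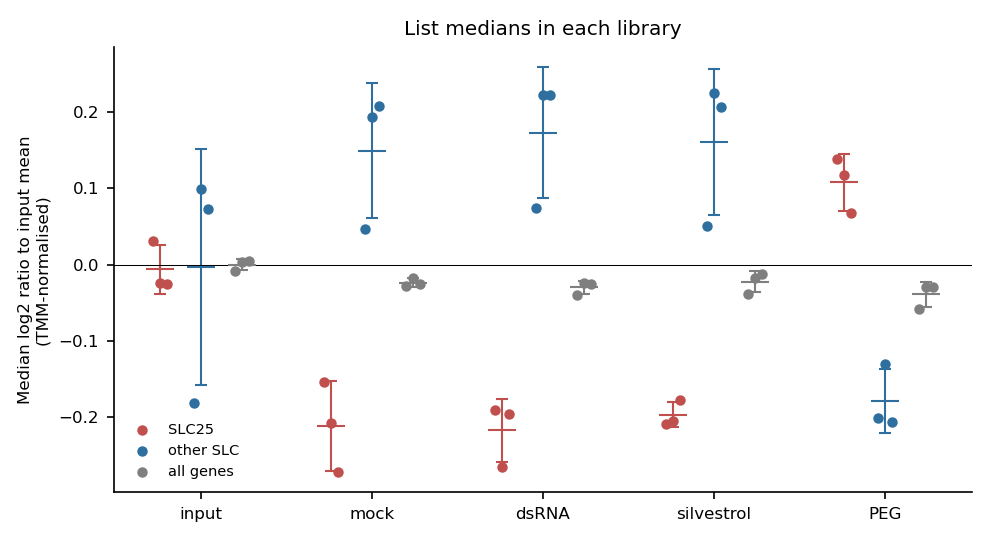
Median log2 ratio to the mean of input over SLC25 (43 mRNAs), other SLC (202 mRNAs) and all 16612 genes, on the vertical axis, for the 3 libraries of each group (points), with the mean and SD over libraries (bars). SLC25 medians lie below 0 in the 9 mock, dsRNA and silvestrol libraries and above 0 in PEG, where they fall to -0.16 in the fit scaled by library size only; the other SLC medians show the opposite order, and input replicate 1 lies at -0.18.

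Rises in SLC25 among members whose mean log2 CPM was 3 or more were led by carriers of amino acids and cofactors. SLC25A29, which encodes a carrier of basic amino acids, had 18.5, 28.9 and 29.2 CPM in input and 41.5, 51.9 and 60.8 in mock, and no library of one group reached into the other. Members named for the size of their change were required not to overlap between groups, so their separation is a description. Its log2 fold change was 1.04 ± 0.21 (SE, edgeR adjusted p = 0.0107). SLC25A42, a coenzyme A carrier, rose from 9.39 ± 0.231 CPM (SD, n = 3) to 17.6 ± 2.34, a log2 fold change of 0.94 ± 0.14. The calcium-regulated ATP-magnesium carrier SLC25A25 changed by 0.71 ± 0.12, with 24.1 ± 0.566 CPM in input and 38.5 ± 4.23 in mock. It shares exon bases with genes on which up to 1.86 times its own reads were counted. All 3 calls held when any 1 of the 6 libraries was left out.

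Falls in SLC25 at that level were led by nucleotide and amino acid carriers. SLC25A33, a pyrimidine nucleotide carrier, had 37.7, 27.8 and 26.2 CPM in input and 17.9, 14.9 and 16.1 in mock, without overlap (log2 fold change -0.86 ± 0.17, edgeR adjusted p = 0.00874). SLC25A13, citrin, which exchanges aspartate for glutamate in the malate-aspartate shuttle, had 74.7, 67.9 and 69.4 CPM in input and 44.4, 39.1 and 42 in mock, a log2 fold change of -0.72 ± 0.10 with an adjusted p of 0.00409. Every mock library of both genes lay below every input library, which the rule for naming them required. SLC25A5 had 498, 709 and 697 CPM in input and 409.5, 424 and 416 in mock, where the 3 libraries lay close together and below all of input. Its log2 fold change of -0.57 ± 0.16 had an edgeR adjusted p of 0.0271, a call lost without mock replicate 2 (0.0808), mock replicate 3 (0.0956), input replicate 2 (0.0755) or input replicate 3 (0.0767), where each value in parentheses is the edgeR adjusted p without that library. SLC25A11, the 2-oxoglutarate carrier, changed by -0.51 ± 0.15 (edgeR adjusted p = 0.0383), a call lost without mock replicate 2 (0.115), mock replicate 3 (0.136), input replicate 1 (0.0549), input replicate 2 (0.0561) or input replicate 3 (0.0557); it shares exon bases with RNF167, on which 0.983 times as many reads were counted.

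Other abundant SLC25 mRNAs did not pass the test in mock. SLC25A3, the phosphate carrier, had 327, 439.9 and 431 CPM in input and 351, 423 and 356 in mock, so the groups overlapped. SLC25A6 had 307, 488 and 510.2 CPM in input and 226, 387 and 351 in mock, with overlap, and its replicate 1 libraries were the lowest of each group. Its log2 fold change of -0.40 ± 0.26 gave an edgeR adjusted p of 0.258 without and 3.2e-04 with the replicate block. SLC25A1 stood at 249 ± 4.57 and 212 ± 12.7 CPM, and the block turned its adjusted p from 0.184 to 0.0422. SLC25A39, needed for glutathione import, stood at 175 ± 1.68 and 172 ± 5.80 CPM. The iron importers mitoferrin 1 and 2, SLC25A37 and SLC25A28, had 75.9 ± 6.11 and 26.1 ± 1.92 CPM in input and 75.6 ± 1.12 and 31.2 ± 1.81 in mock, and SLC25A28 had an adjusted p of 0.00969 with the block.

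**Figure D2:**
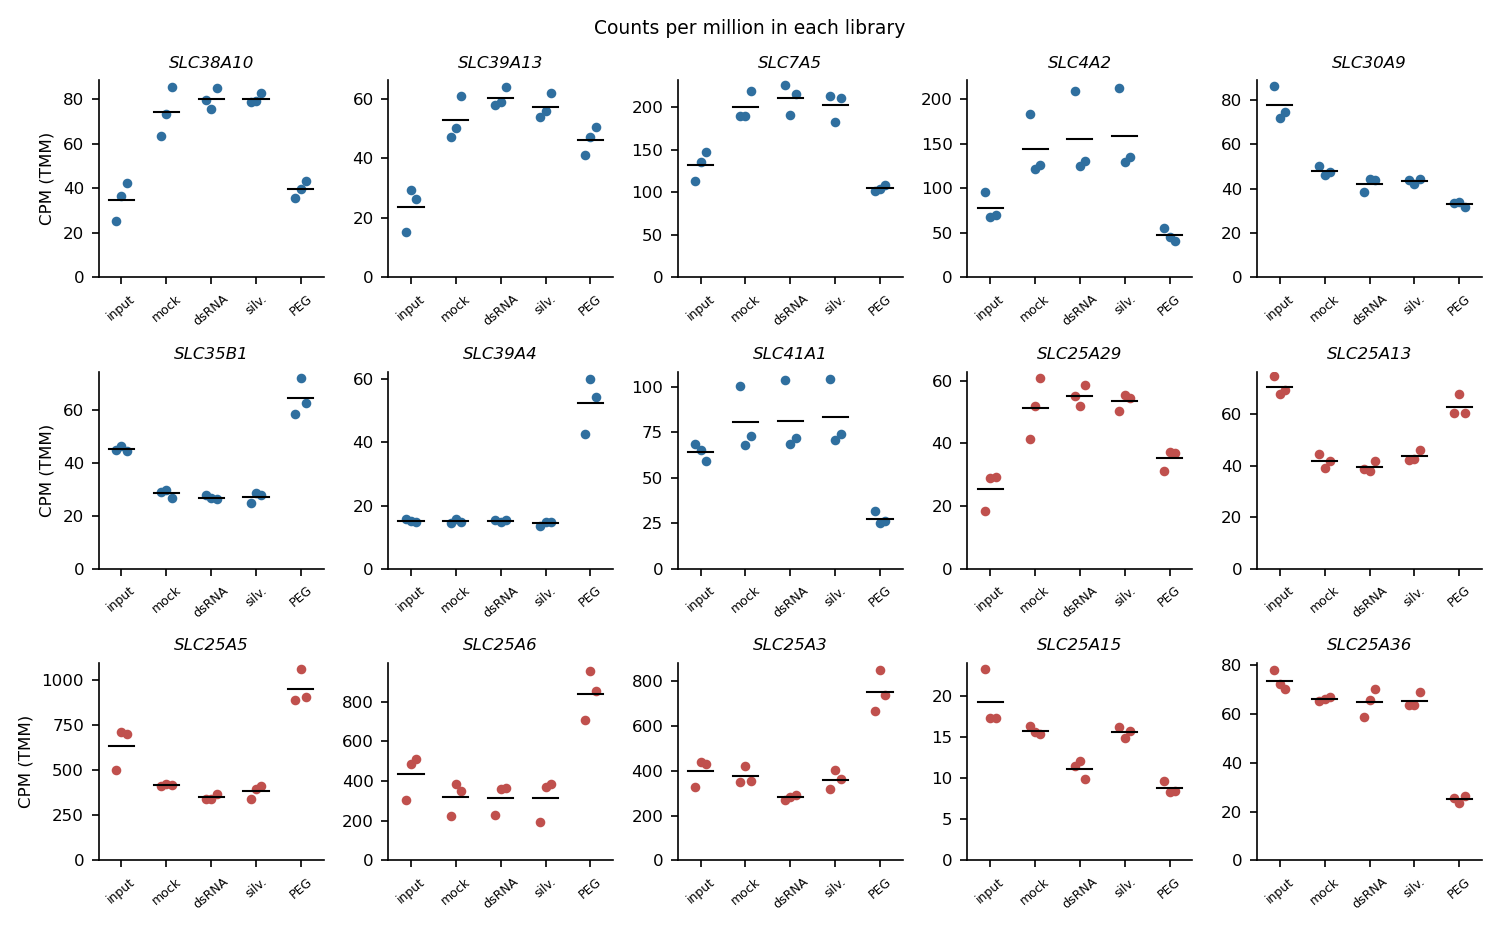
CPM (vertical axis, linear from 0, scaled by TMM) of 15 named members in the 3 libraries of each group (points, replicates 1 to 3 from left to right) with the group mean (line). SLC38A10, SLC39A13, SLC7A5, SLC4A2 and SLC25A29 lie higher in mock, dsRNA and silvestrol than in input, SLC30A9, SLC35B1, SLC25A13 and SLC25A5 lower, and SLC39A4, SLC25A5, SLC25A6 and SLC25A3 are highest in PEG.

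By the substance carried, the medians of the other SLC mRNAs in mock ran from 0.00 to 0.37, and differences between classes were not tested. Classes followed the family number in the symbol, so the 6 members that encode no carrier were counted in them. Beside the counts stand 17.6% of all genes called higher and 15.8% lower. Carriers of inorganic ions and protons had the highest median, 0.37, with 12 of 38 called higher (31.6%) and 1 lower. Carriers of nucleosides, vitamins, choline and lipids followed at 0.31 (7 of 25 higher, 1 lower) and those of sugars and polyols at 0.30 (6 of 23 higher, 1 lower). The medians were 0.14 for the 35 amino acid carriers (4 higher, 1 lower), 0.08 for the 20 carriers of carboxylates and organic ions (1 higher) and 0.05 for the 26 of nucleotide sugars and acetyl-CoA (4 higher, 3 lower). Metal carriers had a median of 0.00, with 3 of 26 higher and 4 lower. Among the 9 members of remaining families none was called. Median GC content was 44.1% for metal, 48% for nucleotide sugar, 52.9% for amino acid, 52.9% for carboxylate, 55.5% for sugar, 56.1% for inorganic ion and 56.9% for nucleoside, vitamin, choline and lipid carriers, and its part in the class medians was not tested.

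Numbered families are given beside the same shares in mock and 31.3 and 32.2% of all genes called higher and lower with PEG against mock, and are too small to be read against them. The 9 members numbered SLC4, the bicarbonate transporter family, include SLC4A1AP, which encodes no carrier. SLC4A5 among them shares exon bases with genes on which up to 169 times its own reads were counted. These 9 had 4 called higher and 0 lower in mock (median 0.44) and, with PEG against mock, 1 higher and 5 lower (median -0.72). The 6 cation-chloride cotransporters of SLC12 had 3 higher and 0 lower in mock (median 0.39), and 1 higher and 5 lower with PEG against mock. All 5 members numbered SLC26, the anion exchanger family, lay above 0 in mock, between 0.29 and 1.23 with 3 called higher. All 5 were called lower with PEG against mock. They include SLC26A10, now named as a pseudogene, which shares exon bases with genes on which up to 15.5 times its reads were counted. SLC26A1 shares exon bases with IDUA, on which 3.5 times as many reads were counted. The 7 zinc exporters of SLC30 had 0 higher and 1 lower in mock (median -0.16) and 0 higher and 3 lower with PEG against mock. The 11 zinc and metal importers of SLC39 ran from -0.69 to 1.19 in mock and from -1.08 to 1.86 with PEG against mock, with 4 called on each side in the latter. The 25 nucleotide sugar transporters and relatives of SLC35 had 4 higher and 3 lower in mock.

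**Figure D3:**
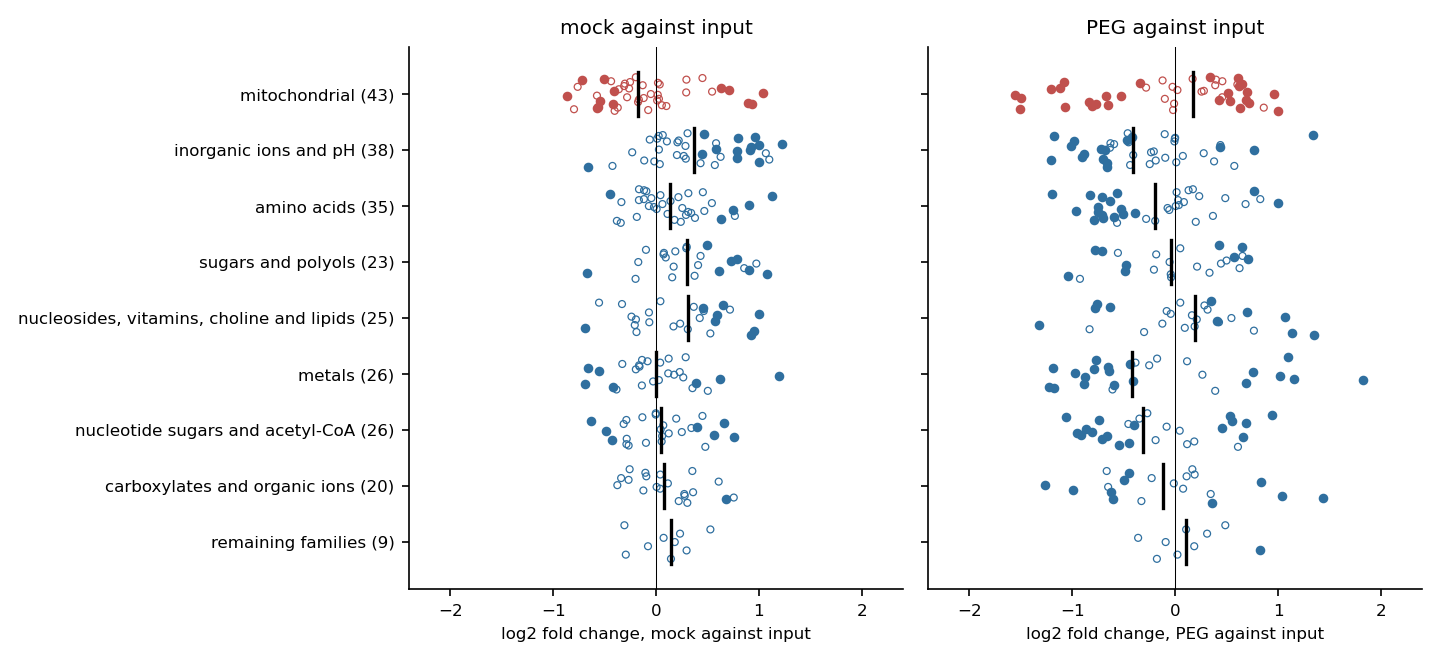
log2 fold change (horizontal axis) of each of the 245 members by the substance carried, for mock against input (left) and PEG against input (right); filled points have an edgeR adjusted p under 0.05, lines are class medians, and SLC25 is red. Inorganic ion carriers have medians of 0.37 and -0.41, and metal carriers hold both the largest rise with PEG, 1.83, and a median of -0.42; scaled by library size only, the SLC25 median with PEG changes from 0.17 to -0.16.

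Among the named amino acid carriers, SLC38A10 rose most. The gene, of the sodium-coupled neutral amino acid transporter family, had 25.3, 36.7 and 42.5 CPM in input and 63.6, 73.5 and 85.6 in mock, without overlap. The log2 fold change was 1.12 ± 0.20 (SE, edgeR adjusted p = 0.00736), and the call held without any 1 library. SLC7A5, the light chain of the large neutral amino acid exchanger LAT1, had 113, 136 and 147 CPM in input and 189.6, 189.6 and 219 in mock, again without overlap, and changed by 0.63 ± 0.13, a call lost without mock replicate 3 (0.0575). Its heavy chain partner SLC3A2 had 71.7, 109 and 113 and 104, 157 and 157 CPM, which overlapped; the log2 fold change of 0.54 ± 0.22 gave an adjusted p of 0.098 without and 6.9e-06 with the block. The glutamine carriers SLC1A5 and SLC38A2 had 105 ± 38.5 and 134 ± 11.6 CPM in input and 96.4 ± 32.6 and 153 ± 1.66 in mock, and neither passed the test, nor did the cystine-glutamate exchanger SLC7A11 at 37.1 ± 1.61 and 31.9 ± 4.13 CPM. With the block, SLC38A2 had an adjusted p of 0.0263.

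Metal carriers held members at both ends. SLC39A13 (ZIP13), a zinc transporter of intracellular membranes, had 15.1, 29.3 and 26.3 CPM in input and 47.2, 50.1 and 61 in mock, the largest rise of the named genes at 1.19 ± 0.24 (edgeR adjusted p = 0.0102). SLC39A8 (ZIP8), which imports zinc and manganese, had 13.2, 16.9 and 16 CPM in input and 7.81, 10.1 and 9.94 in mock, a log2 fold change of -0.69 ± 0.16; the call was lost without mock replicate 3 (0.0505) or input replicate 2 (0.0508). SLC30A9 (ZnT9) had 86.3, 72 and 74.8 CPM in input and 50.3, 46.1 and 47.7 in mock and changed by -0.66 ± 0.11. Neither of these groups overlapped with input. The ER zinc transporter SLC39A7 (ZIP7) changed by 0.38 ± 0.12 (adjusted p = 0.0385), a call lost without mock replicate 1 (0.0657), mock replicate 2 (0.0838), mock replicate 3 (0.0805), input replicate 2 (0.175) or input replicate 3 (0.123). SLC30A1, SLC39A6 and SLC39A14 did not pass, with 26.8 ± 2.43, 24.7 ± 2.90 and 60.5 ± 4.04 CPM in input and 23.8 ± 3.80, 23.7 ± 0.96 and 70.9 ± 4.51 in mock; SLC39A14 had an adjusted p of 0.0148 with the block. The iron exporter ferroportin, SLC40A1, fell by 0.42 on the log2 scale (SE 0.099), a call lost without mock replicate 2 (0.0697), mock replicate 3 (0.0825), input replicate 2 (0.0547) or input replicate 3 (0.0512).

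Among ion carriers, SLC26A11, an anion exchanger that carries sulphate, had 7.86, 12.6 and 11.6 CPM in input and 16.9, 21.6 and 24.6 in mock (log2 fold change 1.00 ± 0.21). Its call was lost without mock replicate 3 (0.0532), and the gene shares exon bases with SGSH on the opposite strand. SLC4A2, the chloride-bicarbonate exchanger AE2, had 95.7, 67.9 and 70.4 CPM in input and 184, 121 and 126 in mock. It changed by 0.92 ± 0.21, a call lost without input replicate 2 (0.0551) or input replicate 3 (0.0591). The potassium-chloride cotransporter SLC12A4 had 64.8 ± 7.65 and 87.5 ± 10.7 CPM (0.47 ± 0.14, adjusted p = 0.0364), a call lost without mock replicate 2 (0.12), mock replicate 3 (0.129), input replicate 1 (0.0768), input replicate 2 (0.0943) or input replicate 3 (0.0752). The sodium-bicarbonate cotransporter SLC4A7 changed by 0.44 ± 0.14, a call lost without mock replicate 2 (0.0711), mock replicate 3 (0.16), input replicate 1 (0.0697), input replicate 2 (0.0903) or input replicate 3 (0.161). The sodium-potassium-chloride cotransporter SLC12A2 and the phosphate carrier SLC20A1 did not pass, with 51.2 ± 13.3 and 108 ± 7.73 CPM in input and 62 ± 20.2 and 107 ± 2.71 in mock; with the block, SLC12A2 had an adjusted p of 0.00728. The sodium-proton exchanger SLC9B2 had 13, 14.1 and 14.1 CPM in input and 7.59, 9.46 and 8.36 in mock, fell by 0.66 (SE 0.13, adjusted p = 0.0102) and shares exon bases with BDH2 on the same strand.

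Sugar, vitamin and nucleotide sugar carriers completed the named genes. SLC2A1, the glucose carrier GLUT1, had 69, 67.5 and 69.5 CPM in input and 99.7, 88.3 and 96.2 in mock, without overlap (0.50 ± 0.10, edgeR adjusted p = 0.0101), a call lost without input replicate 2 (0.0529). SLC50A1, the sugar carrier SWEET1, had 52.7, 43.7 and 43.5 CPM in input and 30.9, 28.9 and 25.6 in mock and changed by -0.67 ± 0.13. SLC35B1, which exchanges ATP and ADP across the ER membrane, had 44.7, 46.3 and 44.3 CPM in input and 29, 29.8 and 26.6 in mock and changed by -0.63 ± 0.10 (edgeR adjusted p = 0.00524). These calls on SLC50A1 and SLC35B1 held without any 1 library. The folate carrier SLC19A1 and the riboflavin carrier SLC52A2 changed by 0.65 ± 0.13 and 0.92 ± 0.21; the second was lost without mock replicate 2 (0.0576) or mock replicate 3 (0.062). The groups also did not overlap for SLC27A3, a fatty acid transport protein with acyl-CoA synthetase activity (7.13 ± 0.396 and 14 ± 0.874 CPM, log2 fold change 1.00 ± 0.12), which shares exon bases with INTS3 on the same strand, on which 3.86 times as many reads were counted. The lactate carriers SLC16A1 and SLC16A3, the nucleoside carrier SLC29A1, the choline carriers SLC44A1 and SLC44A2, SLC33A1 (acetyl-CoA) and SLC35E1 did not pass the test in mock. With the block, SLC16A3 had an adjusted p of 7.2e-05, SLC35E1 of 0.0132 and SLC44A1 of 0.0391. Reads on CSNK1D, which overlaps on the opposite strand, outnumbered those on SLC16A3 24.5 times.

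Condensates made with dsRNA or silvestrol were compared with the same input libraries, so the 3 comparisons are not independent. With dsRNA the SLC25 median was -0.16 and that of the other SLC genes 0.23, against 0.00 over all genes. Of SLC25, 6 mRNAs were called higher and 13 lower (14 and 30.2%), and of the other SLC genes 53 and 14 (26.2 and 6.93%), beside 21.1 and 19.6% of all genes tested. With silvestrol the medians were -0.23 and 0.20, the calls 6 and 10 for SLC25 (14 and 23.3%) and 45 and 15 for the other SLC genes (22.3 and 7.43%), beside 19.4 and 18.1% of all genes. The block raised the numbers called lower among the other SLC genes to 26 with dsRNA and 24 with silvestrol, the number called higher with silvestrol to 74, and that of SLC25 called lower with silvestrol to 16. The block called 31 and 29.1% of all genes with dsRNA and 30.8 and 28.7% with silvestrol. Left-out libraries moved these values. Without input replicate 1 the SLC25 median with dsRNA was -0.26 and the other SLC median with silvestrol 0.0998. Without dsRNA replicate 2 or 3 the other SLC genes had 34 or 30 calls higher and 7 or 8 lower and SLC25 had 5 or 7 lower, and without input replicate 2 or 3 the other SLC genes had 8 or 9 lower. Without silvestrol replicates 1, 2 and 3 in turn, other SLC mRNAs called lower numbered 9, 7 and 6, without input replicate 2 or 3 they numbered 7 or 8, and SLC25 mRNAs called lower numbered 5 without silvestrol replicate 2 or 3.

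The members named for these comparisons had the following values. SLC39A13 had 57.9, 59.1 and 63.9 CPM with dsRNA and 53.8, 56 and 62 with silvestrol, log2 fold changes against input of 1.39 ± 0.23 and 1.30 ± 0.23. SLC38A10 had 79.9, 75.4 and 85 and 78.6, 79.1 and 82.8 CPM (1.24 ± 0.19 and 1.23 ± 0.18), and SLC27A3 reached 16.2 ± 1.46 and 15.4 ± 1.22 (1.22 ± 0.13 and 1.13 ± 0.13). None of these libraries overlapped with input, which the rule for naming these genes required. SLC30A9 fell by 0.84 with dsRNA and 0.80 with silvestrol, SLC9B2 by 0.71 and 0.69, SLC35B1 by 0.70 and 0.70, and SLC39A8 by 0.80 with dsRNA. In SLC25, SLC25A29 rose by 1.15 ± 0.18 and 1.09 ± 0.18, SLC25A42 by 0.99 ± 0.20 and 1.02 ± 0.15 and SLC25A25 by 0.82 ± 0.12 and 0.80 ± 0.14. SLC25A33 fell by 1.10 and 0.93 and SLC25A13 by 0.79 and 0.66. SLC25A5, at 348 ± 17.4 CPM with dsRNA and 382 ± 39.2 with silvestrol, changed by -0.82 ± 0.16 and -0.70 ± 0.17; the second call was lost without silvestrol replicate 2 (0.0521) or input replicate 3 (0.0501).

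Set directly against mock, neither dsRNA nor silvestrol gave a call on any member or any gene with edgeR (0 of 16612). At an unadjusted p under 0.05 there were 374 genes with dsRNA, 5 of them members, and 35 with silvestrol, 0 of them members, and DESeq2 called 64 genes with dsRNA and 0 with silvestrol, none of them a member. With the replicate block, 6 members were called lower with dsRNA, of which 4 were SLC25, while 0.15% of all genes were called higher and 2.65% lower; no member was called with silvestrol, beside 0.012% of all genes called higher and 0% lower. With the GC offset added to the block, the 4 SLC25 calls remained, and those on SLC35E3 (edgeR adjusted p = 0.0961) and SLC44A1 (0.0569) were lost, beside 0.758 and 2.67% of all genes called higher and lower. The 5 with the lowest adjusted p were named. SLC25A15, the ornithine carrier, had 16.3, 15.5 and 15.3 CPM in mock and 11.5, 12.1 and 9.91 with dsRNA, a log2 fold change with the block of -0.49 ± 0.083 (SE, edgeR adjusted p = 5.7e-05, against 0.867 without the block). SLC25A3 had 351, 423 and 356 and 268, 282 and 292 CPM and changed by -0.42 ± 0.063 (adjusted p = 6.8e-06). Neither gene's libraries overlapped between the groups. The peroxisomal carrier SLC25A17 changed by -0.42 ± 0.077 (25.9, 24 and 19.4 CPM in mock and 19.3, 15.7 and 16.6 with dsRNA), SLC25A5 by -0.26 ± 0.061 and SLC35E3 by -0.30 ± 0.086. Silvestrol left SLC25A15 at 16.2, 14.8 and 15.7 and SLC25A3 at 319, 402 and 361 CPM, and both overlapped with mock.

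Relative to all genes, the SLC25 median lay higher and the other SLC median lower with PEG, the reverse of mock. Against the same-numbered input this order held in replicates 2 and 3 and turned in replicate 1, where the medians were -0.055 for SLC25, 0.054 for the other SLC genes and 0.00 for all genes. Scaled by TMM, the SLC25 median was 0.17 and the other SLC median -0.15, against -0.01 over all genes; scaled by library size only, the median of all genes fell to -0.35, that of the other SLC genes to -0.49 and that of SLC25 turned to -0.16. Of SLC25, 13 mRNAs were called higher and 14 lower (30.2 and 32.6%), and of the other SLC genes 32 and 67 (15.8 and 33.2%), beside 25.5 and 25.9% of all genes. With library size only, the splits were 4 and 17 for SLC25 and 13 and 100 for the other SLC genes, beside 14.1 and 41.5% of all genes. The SLC25 median was 0.070 without PEG replicate 1 and 0.10 without input replicate 2, and the other SLC median -0.23 without PEG replicate 2 and -0.079 or -0.070 when input replicate 2 or 3 was left out. Without PEG replicate 2 or 3, SLC25 had 6 or 7 calls higher and the other SLC genes 18 or 20. Metal carriers had 13 of 26 called lower and 6 higher (median -0.42), inorganic ion carriers 13 of 38 lower and 3 higher (median -0.41), nucleotide sugar carriers 11 of 26 lower and 6 higher (median -0.31) and amino acid carriers 15 of 35 lower and 2 higher (median -0.19). Carriers of nucleosides, vitamins, choline and lipids had 6 of 25 higher, 4 lower and a median of 0.19 that turned to -0.16 with library size only.

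The abundant SLC25A6, SLC25A3 and SLC25A5 rose with PEG. SLC25A6 had 706, 956 and 851 CPM with PEG, above all 3 input libraries, and changed by 1.00 ± 0.20 (SE, edgeR adjusted p = 0.00327). SLC25A3 had 668, 851 and 736 CPM and changed by 0.96 ± 0.15, and SLC25A5 had 888, 1056 and 905 CPM and changed by 0.63 ± 0.16, a call lost without PEG replicate 2 (0.072). The libraries of both lay above all of input. SLC25A28 rose to 41 ± 1.96 CPM (0.70 ± 0.12) and SLC25A39 to 275 ± 12.1 (0.69 ± 0.11). At the other end, SLC25A36, a pyrimidine nucleotide carrier, had 78.1, 72.2 and 70.2 CPM in input and 25.6, 23.6 and 26.5 with PEG, a log2 fold change of -1.49 ± 0.12 with an adjusted p of 2.2e-04. The NAD carrier SLC25A51 had 47.5, 27.1 and 24.2 CPM in input and 14.3, 9.10 and 10.4 with PEG (-1.51 ± 0.29), and the ATP-magnesium carrier SLC25A24 fell from 53.8 ± 11 to 22.6 ± 3.71 CPM (-1.21 ± 0.19). SLC25A37, at 68.7 ± 1.20 CPM, did not pass.

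Among the other SLC genes, SLC39A4 (ZIP4), a zinc importer, had the highest log2 fold change. It had 15.7, 15.1 and 14.7 CPM in input and 42.7, 60.1 and 54.3 with PEG, a log2 fold change of 1.83 ± 0.15 (SE, edgeR adjusted p = 2.2e-04), and in mock, dsRNA and silvestrol it stood at 15.1 ± 0.638, 15.3 ± 0.492 and 14.4 ± 0.613. SLC52A2 had 104, 152 and 123 CPM against 35.7, 60.4 and 57.7 in input (1.35 ± 0.20), and SLC12A5 had 51.7, 65.7 and 70.7 against 23.3, 25.6 and 27.8 (1.34 ± 0.14). Neither gene's PEG libraries overlapped with input, which the rule for naming them required. SLC52A2 shares exon bases with genes on which up to 0.813 times as many reads were counted. SLC3A2 rose to 154, 208 and 207 CPM (1.00 ± 0.18), whereas its partner SLC7A5 stood at 102, 104 and 108 and did not pass (-0.28 ± 0.12, adjusted p = 0.0766). SLC1A5 rose by 0.77 ± 0.25, a call lost without PEG replicate 1 (0.0529), PEG replicate 2 (0.154) or PEG replicate 3 (0.142).

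Falls with PEG included choline, iron and amino acid carriers. SLC44A1, a choline carrier, had 55.8, 58.4 and 58.6 CPM in input and 23.5, 20.7 and 22.5 with PEG (-1.32 ± 0.11, edgeR adjusted p = 2.3e-04). Ferroportin, SLC40A1, had 49.2, 52.1 and 51.7 CPM in input and 23.8, 19.9 and 19.8 with PEG (-1.22 ± 0.13), and SLC36A4, an amino acid carrier, had 28.3, 25.6 and 23.3 and 11.7, 10.1 and 10.7 (-1.20 ± 0.14). SLC38A2 fell by 0.71, SLC7A11 by 0.60, SLC30A1 by 0.77, SLC39A14 by 0.87, SLC4A7 by 0.89, SLC35E1 by 0.81 and SLC16A1 by 0.44 on the log2 scale, and these calls held without any 1 library. SLC2A1 rose by 0.43 ± 0.11, a call lost without PEG replicate 2 (0.062), PEG replicate 3 (0.0545) or input replicate 2 (0.0511). SLC16A3 had 12 ± 2.89 CPM with PEG against 6.92 ± 1.69 in input (0.84 ± 0.22, adjusted p = 0.013), a call lost without PEG replicate 2 (0.0767) or PEG replicate 3 (0.0986), and SLC12A2 had 35.9 ± 3.39 and did not pass (adjusted p = 0.0595, with the block 0.044). SLC20A1, SLC29A1, SLC33A1 and SLC44A2 also did not pass, at 105 ± 5.70, 59.5 ± 5.05, 12.3 ± 0.432 and 26.2 ± 1.53 CPM with PEG and 108 ± 7.73, 53.2 ± 3.74, 15.3 ± 1.57 and 23.8 ± 1.57 in input.

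Against mock, which was pelleted in the same way, more members were called with PEG. SLC25 had 18 mRNAs called higher and 14 lower (41.9 and 32.6%) and the other SLC genes 30 and 78 (14.9 and 38.6%), beside 31.3 and 32.2% of all genes. The medians were 0.16 for SLC25 and -0.28 for the other SLC genes, against -0.03 over all genes; with library size only these became -0.30, -0.74 and -0.49, and the splits 8 and 19 for SLC25 and 7 and 128 for the other SLC genes, beside 18.8 and 49.8% of all genes. Leaving out mock replicate 1, 2 or 3 gave SLC25 medians of 0.36, 0.075 and 0.091. Without PEG replicate 3 the other SLC genes had 18 calls higher. Of the 38 inorganic ion carriers, 24 were lower and 4 higher, with a median of -0.72. SLC4A2 had 55.1, 45.1 and 41.3 CPM with PEG against 184, 121 and 126 in mock (-1.54 ± 0.19, edgeR adjusted p = 8.8e-05). The magnesium carrier SLC41A1 had 31.6, 25.1 and 26 against 100.1, 67.8 and 73 (-1.47 ± 0.18) and the sodium-calcium exchanger SLC8A2 12.8, 8.45 and 9.70 against 23.1, 32 and 35.5 (-1.47 ± 0.20).

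Rises against mock were led by SLC39A4 (1.86 ± 0.14), SLC27A5, an acyl-CoA synthetase of bile acid metabolism (6.49, 6.53 and 6.40 CPM in mock, 18.2, 15.8 and 14.1 with PEG, 1.37 ± 0.15), and SLC12A5 (1.34 ± 0.17). SLC27A5 shares exon bases with genes on which up to 1.59 times as many reads were counted. SLC35B1, lower in mock than in input, had 58.4, 72.1 and 62.4 CPM with PEG, a log2 fold change of 1.25 ± 0.13 against mock and 0.56 ± 0.12 against input. In SLC25, SLC25A6 changed by 1.46 ± 0.20, SLC25A48 by 1.29 ± 0.31 (7.59, 20.5 and 17.3 CPM in mock and 25, 40.5 and 39.4 with PEG) and SLC25A5 by 1.26 ± 0.13. SLC25A30, at 17.1, 10.7 and 10.5 CPM in mock and 4.96, 4.20 and 3.61 with PEG, changed by -1.51 ± 0.24, SLC25A36 by -1.31 ± 0.11 and SLC25A42 by -0.89 ± 0.15.

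GC content moved with the values of mock, dsRNA, silvestrol and PEG against input. Across members, Spearman's rho between GC content and the log2 fold change of mock against input was 0.39 over the 43 SLC25 and 0.53 over the 202 other SLC mRNAs, and 0.45 over 13533 protein-coding genes, all from the same 6 libraries. For PEG against input, rho was 0.40, 0.51 and 0.34 in that order, and for PEG against mock it was 0.025, 0.15 and 0.0032. Of the 89 other SLC mRNAs with over 55.0% GC, 32 were called higher and 0 lower in mock, with a median of 0.46, beside 37.3% and 7.01% of protein-coding genes and a median of 0.42 in that range. Of the 57 between 44.9 and 55.0% GC, 4 were higher and 7 lower with a median of 0.12 (protein-coding genes 12.8% higher, 19.7% lower, median -0.05), and of the 56 at lower GC, 1 was higher and 4 lower with a median of -0.10 (protein-coding genes 5.86% higher, 26.5% lower, median -0.23). With the replicate block and an offset that levels the GC trend of each library, the 3 medians were 0.15, 0.18 and 0.09, against 0.06, 0.00 and -0.03 for protein-coding genes. For SLC25, those medians were -0.16, -0.29 and 0.02. The part of GC content in the single calls was not tested.

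Exon length moved with the PEG values. Spearman's rho between exon length and the log2 fold change of PEG against mock was -0.38 over SLC25 and -0.41 over the other SLC mRNAs, beside -0.53 over protein-coding genes, again from shared libraries. Of the 73 other SLC mRNAs over 6.56 kb, 44 were called lower and 4 higher with PEG against mock (60.3 and 5.48%, median -0.69), near the 58.5 and 11.5% of protein-coding genes of that length (median -0.58). Of the 45 up to 3.84 kb, 7 were lower and 14 higher (median 0.15), where protein-coding genes had a median of 0.63 and 10.6% called lower and 56.3% higher. Short SLC25 mRNAs had 11 of 19 called higher and a median of 0.60. In that shortest class, other SLC mRNAs thus had a lower median than protein-coding genes of that length. For mock against input, rho with exon length was 0.21 over SLC25, 0.051 over the other SLC mRNAs and 0.23 over protein-coding genes. With coding length, rho was 0.24, 0.31 and 0.43 in that order. Up to 3.84 kb, 1 of 19 SLC25 mRNAs was called higher and 4 lower in mock (median -0.31). Of the 45 other SLC mRNAs, 8 were higher and 5 lower (median 0.095). Protein-coding genes of that length had 13.2% higher and 27.5% lower (median -0.20). The share of length in these differences was not tested.

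**Figure D4:**
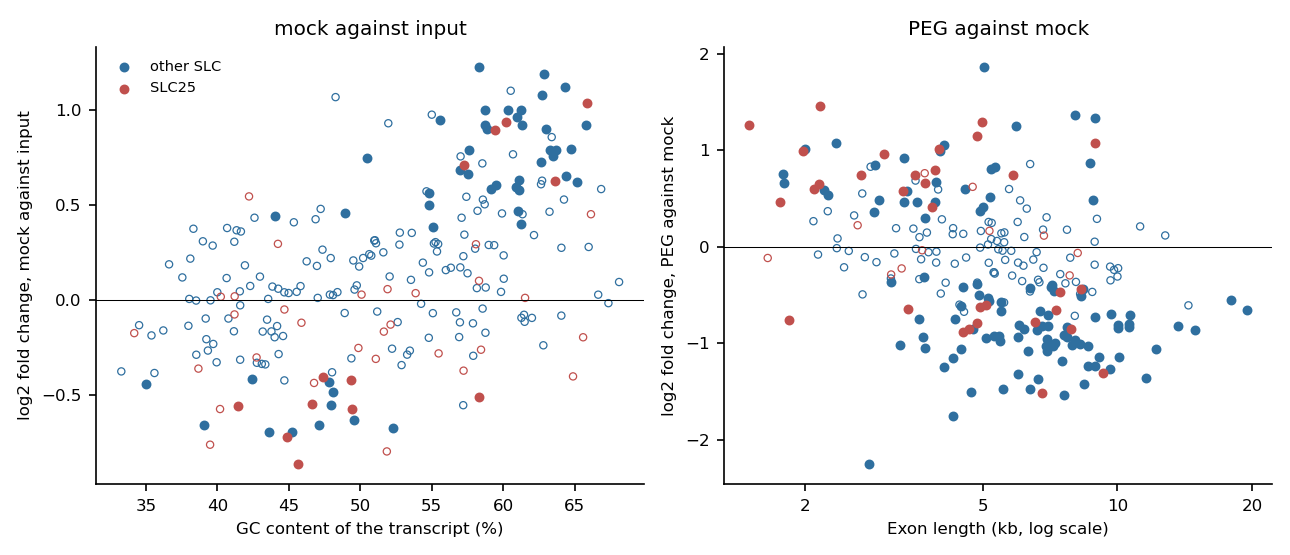
Left, log2 fold change of mock against input by GC content (%) of the transcript; right, log2 fold change of PEG against mock by exon length (kb, log axis), for 43 SLC25 (red) and 202 other SLC mRNAs (blue), filled where the edgeR adjusted p is under 0.05. Rises in mock gather at high GC, with 32 of 37 called other SLC mRNAs over 55.0%, and falls with PEG at long exons.

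Genes that handle the same proteins were counted beside the members, with 17.6% of all genes called higher and 15.8% lower in mock, 21.1 and 19.6% with dsRNA, 19.4 and 18.1% with silvestrol and 25.5 and 25.9% with PEG. Of 39 genes for ER targeting, the translocon and membrane insertion, 21 were called lower and 2 higher in mock (median -0.53), 24 and 2 in each of dsRNA and silvestrol, and with PEG 24 were higher and 5 lower (median 0.57). Of 15 tested genes that import mitochondrial carriers, 6 were lower and 1 higher in mock, and 9 higher and 0 lower with PEG. Mitochondrial carriers and transporters without an SLC symbol had 6 of 10 lower and 0 higher in mock (median -0.59). With PEG, 1 of these 10 was higher and 2 were lower (median 0.09). Of 46 tested ABC transporters, ATP-driven pumps and their partner chains, 16 were higher and 2 lower in mock (median 0.40), 18 and 3 with dsRNA, 20 and 2 with silvestrol, and with PEG 5 were higher and 19 lower (median -0.43). Differences between these lists and all genes were not tested.

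Shared exons limit some members. Of the 245, 121 share exon bases with another gene and 45 with one of larger count, and whether the counting used strand is not given in the sources used here, so reads of such pairs cannot be told apart. Without those 45, the SLC25 median with silvestrol was -0.14 and with PEG 0.26, and the other medians moved by less than the spread between libraries. Leaving out the 6 members that encode no carrier moved no count by over 1.5 times.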

How the data were processed

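Poly(A)-selected RNA from input extract and from mock, dsRNA, silvestrol and PEG condensates of U2OS cells was sequenced in 3 libraries per group, labelled biological replicates. The authors deposited raw counts per gene for each of the 15 libraries; the submitters' processing notes name Trimmomatic 0.36, STAR 2.5.2b, Subread 1.5.2 with featureCounts, and GRCh38, and the strand setting of the counting is not given in the sources used here; per the study's methods the libraries were read from both ends. The study's methods name DESeq2.

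Gene IDs were matched to GENCODE 29 (56898 of 57500; 54784 with the same span), which gave symbols, exon length, GC content and coding sequences. For every comparison, a model of its 6 libraries alone was fitted over 16612 genes with edgeR 4.0.16 (R 4.3.3, TMM, quasi-likelihood test, two-sided, prior count 2), with Benjamini-Hochberg adjustment over all genes tested and a threshold of 0.05; SE is the log2 fold change divided by the square root of F. CPM were scaled by TMM over the 15 libraries and are given with their SD. The procedure was tested on simulated data. Median library size was 35584710 counts.

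The members and gene lists were chosen with earlier results of these data known. Named genes are a fixed list of 34 well-known members (1 is not reported here), the 3 largest rises and falls per comparison, in SLC25 and in the other SLC genes, among members with an adjusted p under 0.05, a mean log2 CPM of 3 or more and libraries that did not overlap between the groups, and, against mock, at most 5 members called with or without the block. Same-numbered libraries deviated together in each of 10 pairs of groups (correlations of 0.1305 to 0.861), so the replicate number was taken to pair samples. Libraries numbered 2 and 3 also deviated together across numbers. Input replicate 2 correlated at 0.5834 with mock replicate 2 and at 0.5826 with mock replicate 3. Input replicate 3 correlated at 0.1954 with PEG replicate 2, above its 0.1305 with PEG replicate 3. Between mock, dsRNA and silvestrol libraries, replicates 2 and 3 correlated more closely with the same number than across these numbers. For mock and dsRNA the values were 0.6495 and 0.6118 with the same number and 0.5388 and 0.5115 across. The correlations set replicate 1 apart. Over the pairs with input or PEG as a whole, they do not show that replicates 2 and 3 are matched by number. Alternatives were DESeq2 1.42.0, median-of-ratios size factors, library size only, a filter of 10 counts in 1 condition, no filter, all 5 groups in 1 fit, the replicate block without and with a GC offset (span 0.3), leaving out each library and, chosen after seeing the data, leaving out 6 members that encode no carrier or those sharing exon bases with a gene of larger count.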

Additional observations from a re-analysis of the deposited data

How the results depend on the processing

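Of 512 list values recomputed, 408 stayed within 1.5 times (counts) or 1 SD over libraries (medians). With the replicate block, calls in mock were 9 higher and 19 lower for SLC25 and 87 and 26 for the other SLC genes, the other SLC genes had 26 lower with dsRNA and 74 higher and 24 lower with silvestrol, SLC25 had 16 lower with silvestrol, and dsRNA against mock had 6 members. Adding the GC offset to the block gave 16 lower for SLC25 and 77 higher and 31 lower for the other SLC genes in mock, 80 and 29 for the other SLC genes with dsRNA, 71 and 32 with silvestrol, 19 lower for SLC25 with silvestrol, 4 members in dsRNA against mock, and SLC25 medians of -0.22 (dsRNA), -0.21 (silvestrol) and 0.12 (PEG). With library size only, SLC25 medians were -0.11 in mock, -0.19 with silvestrol, -0.16 with PEG and -0.30 for PEG against mock, the other SLC medians were -0.49 and -0.74 in the PEG comparisons with input and mock, calls higher were 4 and 8 for SLC25 and 13 and 7 for the other SLC genes there, other SLC calls lower were 128 for PEG against mock and 9 with silvestrol. With all 5 groups in 1 fit, other SLC calls lower were 17 in mock and 25 with dsRNA, SLC25 medians -0.26 (silvestrol), 0.13 (PEG) and 0.096 (PEG against mock), and other SLC medians -0.20 and -0.35 in the PEG comparisons. Without a filter, SLC25 medians were -0.21 (dsRNA), -0.27 (silvestrol), 0.091 (PEG) and 0.091 (PEG against mock) and other SLC medians -0.23 and -0.36. With 10 counts in 1 condition, SLC25 medians were -0.27 with silvestrol and 0.21 for PEG against mock. Without members that overlap a gene of larger count they were -0.14 with silvestrol and 0.26 with PEG. DESeq2 and median-of-ratios size factors moved no list value beyond these limits. The cause of these shifts was not tested. Leaving out 1 library at a time, calls higher and lower and the median ranged, in mock, over 4 to 5, 3 to 9 and -0.20 to -0.14 for SLC25 and 16 to 45, 4 to 13 and 0.079 to 0.21 for the other SLC genes. With dsRNA they were 5 to 6, 5 to 13 and -0.26 to -0.13, and 30 to 51, 7 to 18 and 0.16 to 0.25. With silvestrol they were 5 to 6, 5 to 11 and -0.20 to -0.18, and 30 to 47, 6 to 19 and 0.0998 to 0.21. With PEG they were 6 to 17, 12 to 14 and 0.070 to 0.18, and 18 to 38, 53 to 85 and -0.23 to -0.070. For PEG against mock they were 16 to 21, 10 to 15 and 0.075 to 0.36, and 18 to 33, 63 to 91 and -0.31 to -0.22. No member was called against mock with dsRNA or silvestrol in these fits (0 to 0). Of the 1358 recomputed values of named genes, 1269 kept direction and side of the threshold, 70 fell short of it, 19 newly passed it and 0 changed sign; apart from those given beside the results, the block changed no call of a named gene for which a fold change is printed. PEG replicate 1 held the fewest counts (15341973).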
